A study of Mus musculus with 18 samples.

Results

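The 10 genes of mitochondrial fatty acid oxidation described here were followed across 18 substantia nigra libraries: Cpt1a, Cpt1c, Cpt2, Slc25a20, Acadvl, Acadl, Acadm, Acads, Hadha and Hadhb. They were chosen by name, as genes for carnitine palmitoyltransferases and their carrier, the acyl-CoA dehydrogenases and the trifunctional protein. All 10 were found among 55269 genes listed in the deposited table, and all 10 passed the filter on low values, a normalised read count of at least 10 in at least 6 libraries, which left 19442 genes. The libraries came from 3 groups of 6 mice each. Intact mice were wild-type mice, AAV-GFP mice had received an adeno-associated virus carrying the green fluorescent protein, and AAV-SIRT3 mice had received one carrying sirtuin 3, a mitochondrial protein deacetylase. Tissue was taken when the mice were 3 months old, about a month after the virus was given. The labels give neither the sex of the mice nor the promoter of the vectors. The AAV-GFP group shares the virus with the AAV-SIRT3 group, and the intact group is without it.

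Long-chain fatty acids reach the mitochondrial matrix as carnitine esters. Carnitine palmitoyltransferase 1 on the outer membrane makes the ester, the carrier Slc25a20 takes it across the inner membrane, and carnitine palmitoyltransferase 2 turns it back into an acyl-CoA. Acyl-CoA dehydrogenases of falling chain-length preference then take the first step of each oxidation cycle, and the trifunctional protein, built of the Hadha and Hadhb subunits, takes the remaining steps for long chains. In the brain the pathway is best known from astrocytes, and neurons oxidise little fatty acid. SIRT3 is known to deacetylate enzymes of this pathway, including the long-chain dehydrogenase. Acetylation of a protein is not measured by RNA sequencing.

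Hadha and Hadhb stand head to head on chromosome 5. In the GENCODE annotation of GRCm38, Hadha ends at 30155162 on the minus strand and Hadhb starts at 30155248 on the plus strand, so their annotated starts are separated by 85 bases. These bases are shown because any promoter activity in them lies between both subunits of 1 enzyme. The stretch is chr5:30155163-30155247 of GRCm38.p6, plus strand, as given in the RefSeq promoter table, with the letters GGGCGG (the GC box) in capitals.
Hadha-Hadhb gap: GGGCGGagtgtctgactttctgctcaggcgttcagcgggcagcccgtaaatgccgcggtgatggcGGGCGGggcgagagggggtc
The gap held 2 such GC boxes, and 69.4% of its bases were G or C. All 10 genes matched a RefSeq promoter window, 250 bases before to 50 after the start. GGGCGG, on either strand, was found in the windows of 8 of the 10 genes, all but Acadm and Acadvl, and in 35.7% of all 32851 windows. The windows of Hadha and Hadhb overlap, so the same boxes can count for both genes among the 8.

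Depth was similar in the groups: between 47182420 and 64728400 gene-assigned reads were recovered from each library. The dopaminergic neuron markers Th, Slc6a3 and Slc18a2 were present in every library, and none of 8 marker genes of these neurons was at 0 in any. Their sum ran from 40223 to 55032 normalised reads in intact mice (median 48171), 35496 to 46177 in AAV-GFP mice (median 39526) and 41156 to 48661 in AAV-SIRT3 mice (median 46784). In AAV-GFP against intact mice 7 of the 8 had a log2 fold change below 0, with a list median of -0.30, and 1 passed the test: Slc6a3, the dopamine transporter, fell by 0.44 on the log2 scale (limma, adjusted p = 0.0263). Sirt3, the targeted gene, had 1733 to 1920 normalised reads in intact mice (median 1823), 1684 to 1936 in AAV-GFP mice (median 1756) and 1801 to 2041 in AAV-SIRT3 mice (median 1953). The AAV-SIRT3 and AAV-GFP ranges overlapped, and the log2 fold change of 0.13 ± 0.042 (SE) did not pass the test (adjusted p = 0.183, limma). Whether transcripts of the vector were counted under this gene was not tested. A sum of 8 thalamus markers ran from 40558 to 82161 normalised reads in intact mice, 69301 to 80334 in AAV-GFP mice and 66694 to 87773 in AAV-SIRT3 mice, so the intact libraries included lower values than any AAV library.

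Per kilobase of principal transcript, Hadhb was the most abundant of the genes and Acads the least. In intact mice Hadhb averaged 2873 ± 68.7 normalised reads per kb (SD, n = 6), and Acads 214 ± 18.7. Between them stood Acadl at 1373, Cpt1c at 1257, Hadha at 1225, Acadm at 1055, Acadvl at 711, Cpt1a at 525, Slc25a20 at 427 and Cpt2 at 295 reads per kb. The ranges of Acadl and Cpt1c overlapped, as did those of Cpt1c and Hadha, so the order among these 3 is not separated by the spread between mice. The other neighbours in intact mice had ranges that did not overlap. With the summed length of all annotated exons in place of the principal transcript, Acadl stood first at 1312 and Hadhb second at 892. Slc25a20 then stood last at 157, below Acads at 177, so both the first and the last place depend on the length used. Hadha and Cpt1c exchanged places in AAV-GFP mice, and the order was otherwise the same in the 3 groups.

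**Figure D1:**
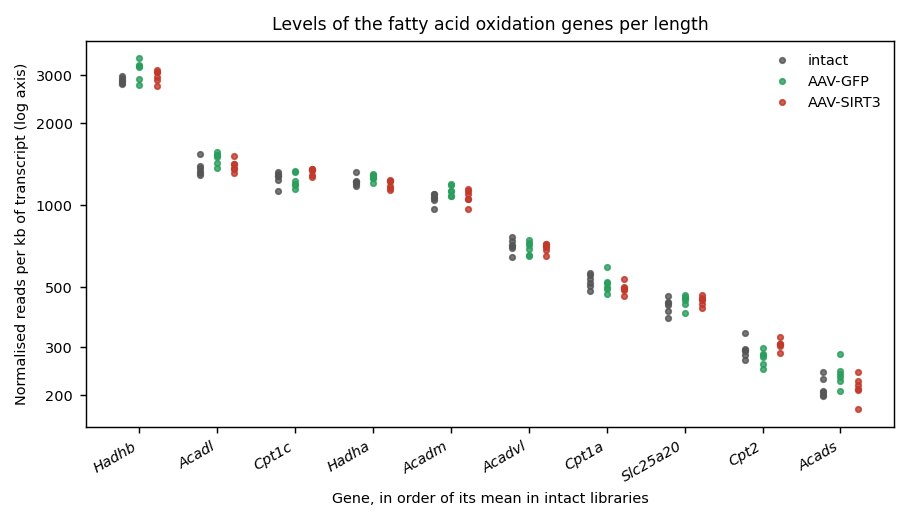
Normalised reads per kb of principal transcript (log axis) for each gene, with 1 point per library and 3 colours for the groups, in order of the intact mean. Hadhb lies above all others, and the points of the 3 groups overlap for every gene.

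None of the 10 genes passed the test in any of the 3 comparisons (limma on log2 of the value plus 1, Benjamini-Hochberg adjusted over all genes tested, threshold 0.05). Between AAV-SIRT3 and AAV-GFP mice, 0 of 10 were called, where 0.113% of all genes tested were. Between AAV-GFP and intact mice, 0 of 10 were called, against 1.84% of all genes. Between AAV-SIRT3 and intact mice, 0 of 10 were called, against 21.7% of all genes. At an unadjusted p under 0.05 the counts were 3, 3 and 0 of 10, where all genes gave 2964, 3707 and 6788 of 19442, and edgeR and DESeq2 on the recovered reads also called 0 of 10 in each comparison. The shares over all genes depended on single libraries: leaving out 1 library moved the 22 calls of AAV-SIRT3 against AAV-GFP to between 5 (without AAV-SIRT3 replicate 5) and 861 (without AAV-GFP replicate 2), and the 358 of AAV-GFP against intact to between 129 (intact replicate 3 left out) and 686 (AAV-GFP replicate 1 left out).

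The differences were small and their intervals narrow. Between AAV-SIRT3 and AAV-GFP mice 4 genes had a higher and 6 a lower mean of the log2 values, with a median log2 fold change of -0.066, beside -0.0041 over all genes. Between AAV-GFP and intact mice 6 were higher and 4 lower, with a median of 0.052, beside 0.00074 over all genes. Between AAV-SIRT3 and intact mice 7 were higher and 3 lower, with a median of 0.027, beside -0.0049. The outermost 95% limits over the 10 genes were -20.6% and 21.8% for AAV-SIRT3 against AAV-GFP, -14.1% and 26.0% for AAV-GFP against intact, and -12.3% and 13.98% for AAV-SIRT3 against intact. Differences beyond these limits lie outside the interval of every gene, and differences within them may be present. The 3 comparisons share groups, so their values are not independent of each other. No gene had groups that did not overlap, where 0.751%, 1.86% and 9.33% of all genes did in the 3 comparisons, in the same order.

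**Figure D2:**
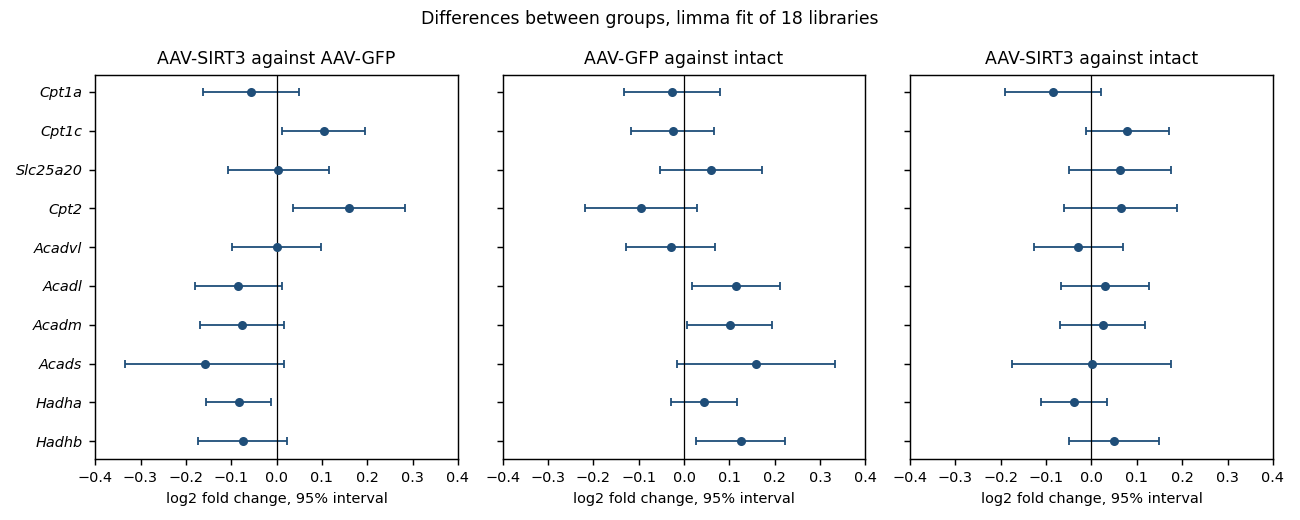
Log2 fold change of each gene (point) with its 95% interval (bar) in the 3 comparisons. Every estimate lies between -0.16 and 0.16, and the intervals that leave 0 out belong to genes whose adjusted p stayed above the threshold.

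Of the carnitine palmitoyltransferases and the carrier, Cpt2 and Cpt1c had the largest upward estimates in AAV-SIRT3 against AAV-GFP mice. Cpt2 ranged from 592 to 711 normalised reads in AAV-GFP mice (median 663), from 679 to 776 in AAV-SIRT3 mice (median 732) and from 639 to 803 in intact mice (median 692). The groups overlapped through 1 AAV-GFP library, the highest, which lay inside the AAV-SIRT3 range, and the highest library of all was an intact one. The log2 fold change was 0.16 ± 0.060 (SE), or 11.7% higher, with an adjusted p of 0.222. Against intact mice the AAV-GFP mean of Cpt2 was lower, at -0.095 ± 0.060 (adjusted p = 0.406), and the AAV-SIRT3 mean was higher, at 0.065 (adjusted p = 0.472).

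Cpt1c, the brain form of the transferase, which has little transferase activity of its own, ranged from 3139 to 3694 normalised reads in intact mice (median 3577), 3214 to 3717 in AAV-GFP mice (median 3390) and 3530 to 3792 in AAV-SIRT3 mice (median 3759). AAV-SIRT3 mice had the narrowest range and 4 of 6 libraries above every AAV-GFP library. Its log2 fold change against AAV-GFP was 0.10 ± 0.044 (adjusted p = 0.276), and against intact mice 0.079 (adjusted p = 0.210). Because its product has little transferase activity, these estimates do not speak to fatty acid entry into mitochondria. An antisense gene, 6530437J22Rik, overlaps the span of Cpt1c, introns included, over 3875 bases. The strand setting of the counting is not given in the sources used here. Whether reads of the overlap were assigned by strand is therefore not known.

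Cpt1a, the form that malonyl-CoA inhibits and that sets the pace of fatty acid entry in liver and astrocytes, ranged from 2086 to 2426 normalised reads in intact mice (median 2268), 2038 to 2555 in AAV-GFP mice (median 2203) and 2009 to 2306 in AAV-SIRT3 mice (median 2128). The ranges overlapped almost wholly. The estimates were -0.057 for AAV-SIRT3 against AAV-GFP (adjusted p = 0.623) and -0.084 against intact (adjusted p = 0.251). Slc25a20 ranged from 684 to 824, 716 to 834 and 750 to 832 normalised reads in intact, AAV-GFP and AAV-SIRT3 mice, with medians of 773, 806 and 803, and its adjusted p was 0.430 or more in each comparison.

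The ratio of the outer to the inner transferase varied least in AAV-SIRT3 mice, by less than read counting alone would give. Per kb, the ratio of Cpt1a to Cpt2 was 1.79 ± 0.114 (SD, n = 6) in intact mice, 1.88 ± 0.131 in AAV-GFP mice and 1.61 ± 0.0226 in AAV-SIRT3 mice. In AAV-SIRT3 mice, counting alone spreads Cpt1a by 2.16% and Cpt2 by 3.70% (coefficient of variation). The SD of 0.0226 on 1.61 is smaller than either, so the narrow spread is not read as a trait of the group. The AAV-SIRT3 ratios spanned 1.58 to 1.63, and lay below all AAV-GFP ratios (1.68 to 2.00) and, but for an overlap at 1.63, the intact ones (1.63 to 1.90). The ratio was picked out after its values were seen and carries no test. How often ratios of other gene pairs separate these groups was not computed, so the separation has no background to be read against. It sets 4317 bases of Cpt1a against 2372 of Cpt2, and its level depends on the length used. With summed exon length, the intact means per kb were 297 and 292. Removing each library's trend with transcript length moved the AAV-SIRT3 against intact log2 fold change of Cpt1a from -0.084 to -0.044. That of Cpt2 moved from 0.065 to 0.033. Against AAV-GFP, Cpt1a moved from -0.057 to -0.038 and Cpt2 from 0.16 to 0.15. Cpt1c exceeded Cpt1a by 2.40 ± 0.212, 2.41 ± 0.238 and 2.69 ± 0.179 times per kb in intact, AAV-GFP and AAV-SIRT3 mice.

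**Figure D3:**
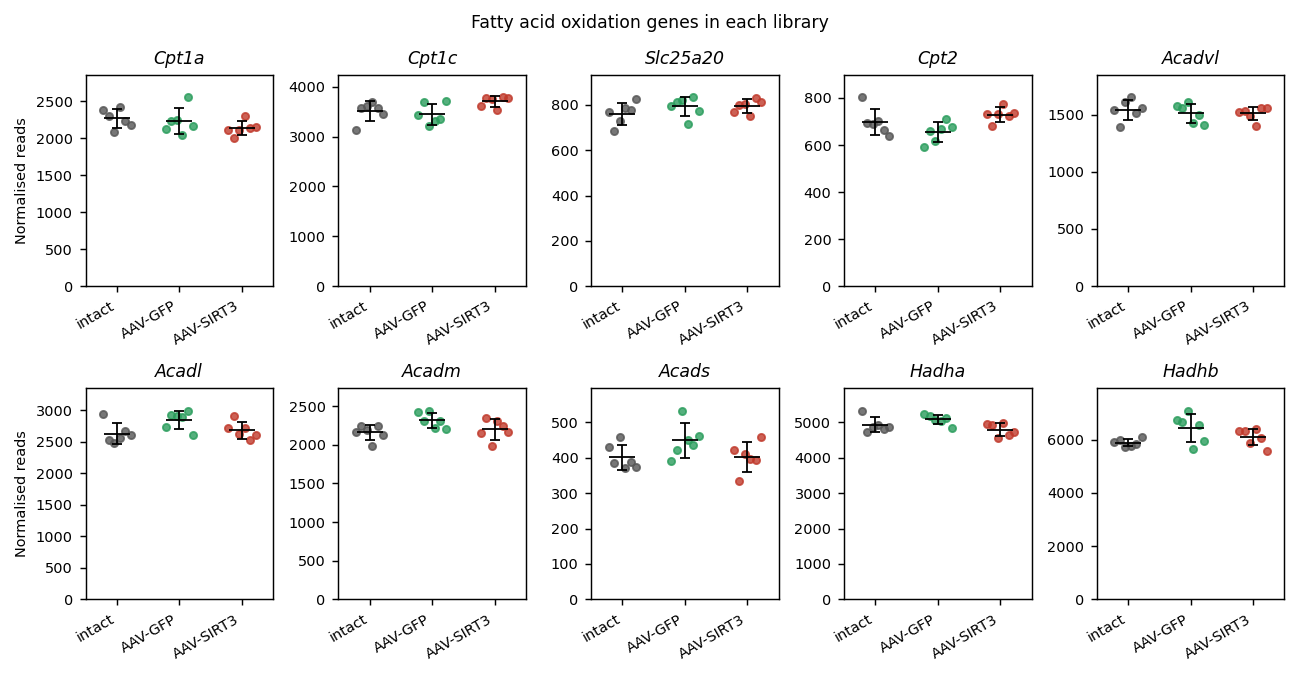
Normalised reads of each gene in each library (points), with the group mean and SD (black), for intact, AAV-GFP and AAV-SIRT3 mice. The axes start at 0, and the 3 groups overlap in every panel.

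Among the acyl-CoA dehydrogenases, Acadl, Acadm and Acads had higher means in AAV-GFP mice than in both other groups, and Acadvl had a slightly lower mean there than in intact mice, but none of these differences passed the test. Acadl, the long-chain enzyme, ranged from 2477 to 2947 normalised reads in intact mice (median 2586), 2611 to 2997 in AAV-GFP mice (median 2902) and 2523 to 2910 in AAV-SIRT3 mice (median 2673). In AAV-GFP mice 5 of 6 libraries exceeded 5 of the 6 intact ones. Its log2 fold change of AAV-GFP against intact was 0.11 ± 0.046 (adjusted p = 0.181), and of AAV-SIRT3 against AAV-GFP -0.084 (adjusted p = 0.392). A processed pseudogene, Gm15793, lies within the span of Acadl, introns included, on the same strand over 495 bases, so any reads there are uncertain.

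Acadm, the medium-chain enzyme, ranged from 1987 to 2241 normalised reads in intact mice (median 2178), 2203 to 2443 in AAV-GFP mice (median 2305) and 1978 to 2347 in AAV-SIRT3 mice (median 2202). Its estimates were 0.10 ± 0.045 for AAV-GFP against intact (adjusted p = 0.226) and -0.076 for AAV-SIRT3 against AAV-GFP (adjusted p = 0.429). Acads, the short-chain enzyme, had the fewest reads and the widest spread of the 10. It ranged from 371 to 457 normalised reads in intact mice (median 386), 389 to 533 in AAV-GFP mice (median 443) and 333 to 457 in AAV-SIRT3 mice (median 403). Its estimates were the largest of the dehydrogenases, at 0.16 ± 0.084 for AAV-GFP against intact (adjusted p = 0.314) and -0.16 ± 0.084 for AAV-SIRT3 against AAV-GFP (adjusted p = 0.373).

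Acadvl, the very-long-chain enzyme of the inner membrane, ranged from 1394 to 1651 normalised reads in intact mice (median 1546), 1411 to 1612 in AAV-GFP mice (median 1524) and 1404 to 1560 in AAV-SIRT3 mice (median 1528). From the log2 values, AAV-SIRT3 was 0.0391% above AAV-GFP, with a 95% interval of -6.54% to 7.08%. The plain mean was slightly lower in AAV-SIRT3 mice, at 1510.4 against 1510.7 normalised reads. The span of Acadvl, introns included, overlaps that of Dvl2 on the opposite strand over 2119 bases. Without the strand setting it is not known how reads of the overlap were assigned.

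Both subunits of the trifunctional protein had higher means in AAV-GFP mice than in the other groups, with no difference past the threshold. Hadhb, the thiolase subunit, ranged from 5712 to 6085 normalised reads in intact mice (median 5868), 5660 to 7088 in AAV-GFP mice (median 6600) and 5587 to 6395 in AAV-SIRT3 mice (median 6189). AAV-GFP mice were the most spread, with 4 libraries above every intact one and 1 library below all of them. Its log2 fold change of AAV-GFP against intact was 0.12 ± 0.048, with the lowest adjusted p of the 10 genes in that comparison (0.157). Hadha, the hydratase and dehydrogenase subunit, ranged from 4722 to 5327 normalised reads in intact mice (median 4870), 4845 to 5220 in AAV-GFP mice (median 5092) and 4551 to 4972 in AAV-SIRT3 mice (median 4816). For Hadha, AAV-SIRT3 against AAV-GFP gave -0.084 ± 0.035 (adjusted p = 0.267).

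Relative to each other the subunits kept a similar balance. The ratio of Hadha to Hadhb per kb was 0.427 ± 0.0215 in intact mice, 0.404 ± 0.0295 in AAV-GFP mice and 0.401 ± 0.0146 in AAV-SIRT3 mice. The level of this ratio depends on the length used. With summed exon length, the intact means per kb were 564 for Hadha and 892 for Hadhb. With the group means taken off, Pearson's r between the subunits was 0.42 over the 18 libraries, which share depth and dissection.

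Most of the genes varied little between mice of a group. The SD of log2 values within groups was 0.051 for Hadha and 0.14 for Acads, with a median of 0.078 over the 10 genes, beside 0.099 over 9064 genes of the same range of mean values. That range ran from 417 to 6138 normalised reads, and the 9064 genes were not matched in level to the 10 within it. Across the 18 libraries, with group means taken off, the 45 pairs of genes had a median r of 0.053, and 26 were above 0. The highest were Acadl with Hadha (0.73), Acadvl with Slc25a20 (0.67), Acadm with Hadhb (0.61) and Cpt1a with Cpt2 (0.59), and the lowest was Cpt1c with Acadl (-0.62). The genes therefore did not rise and fall as 1 block within groups. Intact replicate 1 was the highest intact library for Acadl (2947) and Hadha (5327) and the lowest for Cpt1c (3139). The highest and lowest r both include this library, and r without it was not computed. Of all genes tested, the most like each in this measure were Prkab2 for Acadl (r = 0.83), Suox for Hadhb (0.91), Samd15 for Hadha (0.88), Fbf1 for Cpt1c (0.86), Klhdc7a for Cpt1a (0.78), Gm20544 for Cpt2 (0.82), Gm49284 for Acadm (0.82), Flot2 for Acads (0.83), and Tnfaip3 for both Acadvl (0.79) and Slc25a20 (0.82). Each is the highest of its kind over all genes tested, and serves as a description.

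Other genes of fatty acid metabolism were read from 11 lists with 117 further genes, of which 116 were in the table and 114 were tested. Tmlhe was not analysed here, and Cpt1b, the muscle form of the transferase, and Fgf21 were below the filter, with Cpt1b at 1.06 to 11.4 normalised reads. In AAV-SIRT3 against AAV-GFP 0 of 114 passed, in AAV-GFP against intact 2 (both lower) and in AAV-SIRT3 against intact 25, or 21.9%, close to the 21.7% of all genes. Of these 25, 16 were higher and 9 lower.

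Both genes that fell in AAV-GFP against intact mice also fell in AAV-SIRT3 against intact mice, a comparison that shares the intact libraries. Ppargc1b, a coactivator of mitochondrial genes, fell by 0.44 on the log2 scale (adjusted p = 0.0335), and Fasn, which makes palmitate, fell by 0.16 (adjusted p = 0.0336). Both calls ended when intact replicate 1, 3 or 4 or AAV-GFP replicate 2, 3 or 4 was left out, and that of Fasn also without AAV-GFP replicate 5. Neither passed with the thalamus marker score as a covariate, with only the 2 groups in the fit or with all genes above 0 tested, and Fasn also did not pass with either length trend removed. Markers of other cells moved with this comparison, where 1.84% of all genes were called. Of 8 thalamus markers 1 rose. Of 7 reactive astrocyte markers 3 rose, with sums of 18097 to 26564 in intact and 24015 to 44014 in AAV-GFP mice. Of 9 microglia markers 3 rose, with sums of 18771 to 21129 and 20737 to 25990. The part of the reactive astrocyte, microglia and dopaminergic markers in the values of AAV-GFP against intact mice, those of the 10 oxidation genes included, was not tested.

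In AAV-SIRT3 against intact mice, 6 of 13 genes of fatty acid uptake and activation passed. The binding proteins Fabp3 (0.25), Fabp5 (0.19) and Dbi (0.20) and the transporter Slc27a4 (0.11) rose on the log2 scale, while the scavenger receptor Cd36 fell by 0.44 and the ligase Acsl1 fell by 0.12. Of 15 further mitochondrial oxidation enzymes 2 passed, Hsd17b10 (0.25) and the thioesterase Acot13 (0.29), both higher. Hadh, the short-chain hydroxyacyl dehydrogenase, was at 0.018 (adjusted p = 0.849). None of 5 electron transfer flavoprotein genes passed: Etfa, Etfb and Etfdh, which pass electrons from the dehydrogenases to the respiratory chain, had log2 fold changes of 0.044, 0.37 and -0.054. None of the 5 tested carnitine genes passed. Of 14 peroxisomal genes 1 passed, Scp2 (0.12), higher.

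Oxct1, which uses ketone bodies, rose by 0.14 in the same comparison. Of 11 genes of propionate and branched-chain acyl-CoA breakdown, Pccb (0.11) and Hibadh (0.18) rose and Mccc1 fell by 0.32.

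Of 11 genes of malonyl-CoA and AMPK control 5 passed. The acetyl-CoA carboxylases Acaca and Acacb, which make the malonyl-CoA that inhibits Cpt1a, fell by 0.20 and 0.24, the AMPK subunit Prkab2 fell by 0.13, and Prkag1 (0.29) and the AMPK-activating kinase Stk11 (0.20) rose. Of 12 genes of synthesis and storage, the list that also holds Acacb, Fasn fell by 0.14, and the lipases Pnpla2 (0.19) and Mgll (0.18) rose. None of the 9 tested PPAR target genes outside the pathway passed, among them Pdk4, which restrains pyruvate use, at -0.070.

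Of 13 PPAR and PGC-1 regulators 3 passed in AAV-SIRT3 against intact mice. Rxrb, the partner receptor of the PPARs, rose by 0.22, Esrra, a receptor that drives oxidative genes, rose by 0.23, and Ppargc1b fell by 0.56. Ppara, the receptor that activates fatty acid oxidation in liver, had few reads, with a mean of 116 ± 17.8 in intact mice (SD, n = 6), 103 ± 14.4 in AAV-GFP mice and 90.4 ± 17.3 in AAV-SIRT3 mice, and its -0.37 against intact did not pass (adjusted p = 0.0772). Neither Ppard at 0.12 nor Ppargc1a at -0.14 passed.

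**Figure D4:**
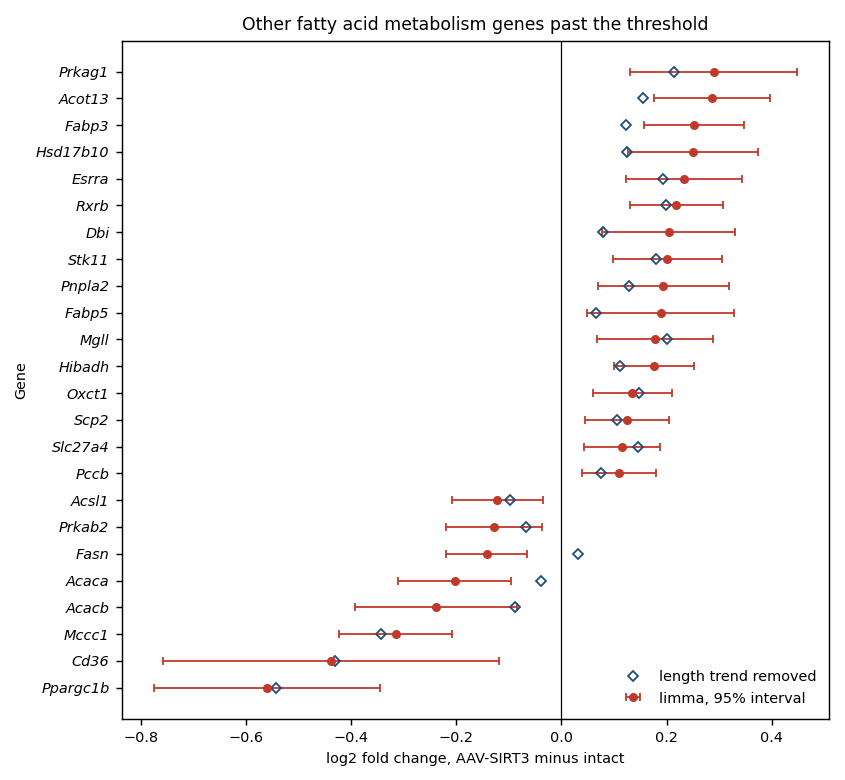
Log2 fold change in AAV-SIRT3 against intact mice of 24 other fatty acid metabolism genes past the threshold (red points with 95% intervals), and the same with a trend with transcript length removed (open diamonds). Ppargc1b and Mccc1 keep nearly the same values, while Fasn moves to the other side of 0.

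These 25 calls moved with features of whole libraries. With the length trend removed 12 of the 25 kept their call (and Crat and Fabp7 gained one), and with the thalamus marker score as a covariate 11 did. Calls over all genes tested also fell, from 4214 to 2903 with the length trend removed and to 1767 with the thalamus covariate. Acaca, Acacb, Acsl1, Cd36, Fabp5, Fasn, Pccb, Prkab2 and Scp2 passed in neither, while Mccc1, Ppargc1b, Rxrb, Acot13, Hibadh and Stk11 were among those that passed in both. Leaving out single libraries ended 11 calls in at least 1 fit and left 14 in place in every fit. Cd36 and Fabp5 each lost theirs in 13 of 18 fits, Prkab2 in 8, Acsl1 in 7, Acacb and Pccb in 5, Pnpla2 and Scp2 in 4, Dbi in 3, Mgll in 2 (without intact replicate 5 or AAV-SIRT3 replicate 3) and Slc27a4 in 1 (without intact replicate 3). In single libraries, Spearman's correlation of a gene's deviation with its transcript length ran from 0.096 to 0.20 in intact mice, from -0.33 to 0.13 in AAV-GFP mice and from -0.33 to -0.0098 in AAV-SIRT3 mice. Cell markers moved with the comparison too, where 21.7% of all genes were called. Of 9 microglia markers 5 rose, with summed levels of 18771 to 21129 in intact and 20991 to 24498 in AAV-SIRT3 mice. Of 8 endothelial markers 4 fell and 1 rose, with sums of 8869 to 11540 and 7827 to 11522. In other lists, 7 of 8 thalamus and 2 of 8 oligodendrocyte markers rose, and 2 of 8 ependymal and choroid plexus markers fell. Of 8 pan-neuronal markers 2 rose and 1 fell, and 1 of 9 astrocyte and 1 of 7 reactive astrocyte markers rose. Of 8 dopaminergic markers 0 passed. No marker was at 0 in any library. Apart from the fit with the thalamus score, the part of the markers in the results was not tested. In bulk tissue, fewer cells of a type and less RNA per cell cannot be told apart.

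The nuclear receptors among these regulators recognise the half-site AGGTCA. It was found, on either strand, in the RefSeq windows of 4 of the 10 genes, Cpt1a, Cpt1c, Acadm and Acadvl, and in 16.3% of all windows. The 30 bases around each are given on the strand of the gene, with the half-site in capitals (TGACCT where it lies on the other strand), to show where the letters stand.
Cpt1a, chr19:3323195-3323224, plus strand: cagtttccttacTGACCTcctccccgcagc
Cpt1c, chr7:44974980-44975009, minus strand: gggcagggagggAGGTCAaggctgtttctt
Acadm, chr3:153944864-153944893, minus strand: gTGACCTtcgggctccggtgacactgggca
Acadvl, chr11:70015498-70015527, minus strand: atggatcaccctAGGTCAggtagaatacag
The pieces start 106, 158, 250 and 99 bases before the RefSeq start, and that of Cpt1a lies in an intron of a longer annotated Cpt1a transcript. The direct repeat that PPAR dimers bind, 2 half-sites with 1 base between, and the longer TCAAGGTCA of estrogen-related receptors were in none of the 10 windows, and in 0.0396% and 0.423% of all windows. A match in letters is not a measured site, and these windows leave out more distant elements.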

How the data were processed

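Poly-A RNA of the substantia nigra was sequenced in 18 libraries, 1 per mouse, 6 per group, with a stranded kit and paired reads of 100 bases. The deposited values are a normalised signal, read counts divided by size factors by the authors with HTSeq and DESeq2, per the file name; the submitters' processing notes list HISAT2 2.1.0, DESeq2 1.34.0 and mm10. The annotation and strand setting are not given in the sources used here. Whole reads were recovered for 100% of values (tolerance 0.001 reads). A row that names no gene held at most 0.000289% of a library and was left out. The members and gene lists were chosen with earlier results of these data known. All 18 libraries entered 1 fit in limma 3.58.1 (R 4.3.3) on log2(value + 1), with a trend in the prior variance and Benjamini-Hochberg adjustment within each comparison. Log2 fold changes refer to these values and so are too small for low genes. The procedure was tested on simulated data. Alternatives were count tests of the recovered reads in edgeR 4.0.16 and in DESeq2 1.42.0, and other scalings, pseudocounts, filters, covariates and leaving out each library. Lengths are of the longest GENCODE M21 principal transcript (GRCm38), or of the longest transcript where none is marked principal. By name, 18824 tested genes were matched. Named genes are the 10 members, listed genes that passed, regulators and comparators given in any case, and the gene most alike to each member. A listed gene is counted but not reported here.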

Additional observations from a re-analysis of the deposited data

Results flagged for a closer look

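In 132 groups of 6 libraries, over the 10 genes and the other genes named above, 7 had a highest or lowest library set apart from the rest by more than Dixon's 95% critical value. Chance flags about 1 in 20 groups, or 6.6 here. One of them was a member: Hadha in intact replicate 1, at 5327 normalised reads, with 4927 in the next library. The same library stood apart for Acaca, at 8016. AAV-GFP replicate 2 stood apart upward for Acot13 (3105) and downward for Ppargc1a (3634). AAV-GFP replicate 6 was low for Acsl1 (2495), AAV-SIRT3 replicate 2 for Etfa (1892) and AAV-SIRT3 replicate 6 for Oxct1 (15747).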

How the results depend on the processing

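None of the 10 genes passed in any of 30 alternative fits per comparison; over these fits the adjusted p was 0.102 to 1 (AAV-SIRT3 against AAV-GFP), 0.0755 to 0.990 (AAV-GFP against intact) and 0.124 to 1 (AAV-SIRT3 against intact). Their median in the last comparison moved to -0.018 with the length trend removed. The trend with summed exon length was run first and is given as an alternative chosen after seeing the data. The replicate numbers did not pair the mice: same-numbered libraries correlated at -0.095 to 0.18, 1 of 18 pairs over 0.1. With a replicate block 0 of 10 members were called, and of the other genes Prkab2 lost its call.

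Counts of other fatty acid genes depended more on the setting. For AAV-SIRT3 against AAV-GFP, 0 became 2 with DESeq2 (Mccc1, Rxrb), 1 at an adjusted p under 0.1, and 0 to 3 leaving out single libraries (3 without AAV-GFP replicate 2). For AAV-GFP against intact, 2 became 0 with all genes above 0 or the thalamus covariate, 1 with only the 2 groups (Dbi, neither of the former 2), 1 with the summed exon length (Ppargc1b), 7 with DESeq2, 8 at an adjusted p under 0.1 and 0 to 5 leaving out single libraries (5 without AAV-GFP replicate 1, 4 without intact replicate 6 or AAV-SIRT3 replicate 6). For AAV-SIRT3 against intact, 25 became 11 with the thalamus covariate and 14 with the length trend removed. Over all genes, AAV-SIRT3 against AAV-GFP gave 22 calls with limma, 310 with DESeq2 and 8 with only the 2 groups; AAV-GFP against intact gave 358, 1008 and 199, 164 with all genes above 0, 35 with the thalamus covariate and 236 with the length trend removed; AAV-SIRT3 against intact gave 4214, 1767 with the thalamus covariate and 2903 with the length trend removed. Leaving out 1 library at a time, AAV-SIRT3 against AAV-GFP gave 5 to 861 calls: 861 and 38 when AAV-GFP replicate 2 or 6 was dropped, 9, 10, 12 and 10 when AAV-GFP replicate 1, 3, 4 or 5 was, and 5 when AAV-SIRT3 replicate 5 was. AAV-GFP against intact gave 129 to 686: 129, 140, 161 and 540 when intact replicate 3, 4, 5 or 6 was dropped, and 686, 168, 139 and 158 when AAV-GFP replicate 1, 2, 3 or 5 was. AAV-SIRT3 against intact gave 3279 to 4633.

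The estimates that changed sign are given here on the log2 scale; of them only Fasn, in AAV-SIRT3 against intact, had been called. In AAV-SIRT3 against AAV-GFP, Acadvl was at -0.0014 with TMM factors, -0.0023 with edgeR, -0.017 with the length trend removed and -0.027 with the summed exon length; Slc25a20 was at -0.026 with the length trend removed, and Acaca at 0.038 and 0.046 with the 2 length trends. In AAV-GFP against intact, the thalamus covariate put Acadvl at 0.0049 and Etfb at -0.0038, and the summed exon length put Cpt1a at 0.0045, Etfdh at 0.022 and Pdk4 at -0.0074. In AAV-SIRT3 against intact, removing the length trend put Acadm at -0.027, Acadl at -0.028, Acads at -0.061, Hadhb at -0.0013, Slc25a20 at -0.0032, Etfa at -0.050, Hadh at -0.048, Sirt3 at -0.0028 and Fasn at 0.032; the summed exon length put Cpt2 at -0.0057, Acadl at -0.055, Acads at -0.075, Hadha at 0.034, Etfa at -0.047 and Etfdh at 0.0022. The thalamus covariate put Acadvl at 0.0061, Hadha at 0.0012, Pdk4 at 0.036 and Ppard at -0.026, and Acads was at -0.0074 with TMM factors and -0.0065 with edgeR. Leaving out single libraries, the ranges that crossed 0 were: in AAV-SIRT3 against AAV-GFP, Acadvl -0.019 to 0.021, Slc25a20 -0.026 to 0.020 and Etfa -0.038 to 0.0010; in AAV-GFP against intact, Acacb -0.022 to 0.056, Etfdh -0.023 to 0.010 and Pdk4 -0.012 to 0.057; in AAV-SIRT3 against intact, Acads -0.038 to 0.053 and Hadh -0.0035 to 0.048. The cause was not tested.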
